A study of Arabidopsis thaliana with 6 samples.

Results

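Expression of 6 sugar transporter genes was examined in unopened flower buds of Arabidopsis thaliana. They are VEX1 (also SWEET5, AT5G62850), SWEET3 (AT5G53190), SWEET7 (AT4G10850), SAG29 (also SWEET15, AT5G13170), SWEET11 (AT3G48740) and TMT3 (AT3G51490). Each is read by 1 probe set that names no other gene, so they make up 6 of 13513 single-gene probe sets, and 5 of the 16 SWEET genes measured. The genes were chosen by their difference between ddm1 and wild type on these same arrays. That difference is therefore given as a description, and no conclusion is drawn from a test of it.

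The 6 arrays hold 3 biological replicates of wild type Col, the Columbia accession, and 3 of ddm1 plants in the F6 inbred generation. DDM1 is a nucleosome remodeller on which DNA methylation and the silencing of transposable elements depend, and the labels name no ddm1 allele. Both genotypes were raised on soil under long days (18 h light, 23 °C). No inbred generation is given for wild type, so the mutation and the inbreeding history cannot be told apart. DDM1 itself was not analysed here and gives no check of the labels.

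SWEET proteins are uniporters that let sugar cross a membrane down its gradient in either direction. Family members of clades I and II, such as SWEET3, VEX1 and SWEET7, mainly carry hexoses, and those of clade III, such as SWEET11 and SAG29, carry sucrose. TMT proteins work differently: they sit in the tonoplast and exchange protons for sugar, loading the vacuole. In flowers, pollen grains develop without symplastic links to the surrounding anther, so their sugar has to pass through transporters of this kind.

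The deposited values are log2 units centred on a baseline for each probe set. They show how a gene differs between arrays and carry no expression level, so levels of different genes cannot be set against each other. The labelled tissue could not be checked by the level of its markers for the same reason. Over all 22746 probe sets the median difference of ddm1 from wild type was 0.00445, the median size of a difference was 0.086, and 4.16% of probe sets differed by at least 1 log2 unit. Differences below are ddm1 minus wild type on the log2 scale, followed by limma's standard error (SE), with n = 3 for each genotype.

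VEX1, named for its expression in the vegetative cell of the pollen grain, stood furthest from wild type. It read 0, 0.14 and 0.29 in wild type replicates 1 to 3, and -4.29, -2.97 and -3.14 in ddm1 replicates 1 to 3. The lowest wild type array lay 2.97 log2 units above the highest ddm1 array, a gap of 7.85-fold. The mean difference was -3.61 ± 0.36 (SE), or 12.2-fold lower in ddm1. Of the 13513 single-gene probe sets, 2 lay lower than VEX1. The gene was also the most variable of the 6, with an SD of 0.716 among ddm1 arrays against 0.147 among wild type arrays. Most of that spread came from ddm1 replicate 1, and without it the difference was -3.20, or 9.21-fold.

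The other hexose-type genes were lower in ddm1 by smaller amounts. SWEET3, a clade I member, read 0.22, 0.49 and 0.31 in wild type against -1.39, -0.84 and -1.05 in ddm1. Its mean difference was -1.44 ± 0.16, or 2.70-fold lower. SWEET7, a clade II member like VEX1, read 0.35, 0.44 and 0.01 in wild type against -1.50, -0.77 and -0.99 in ddm1. It was 2.56-fold lower (-1.36 ± 0.22). In both genes ddm1 replicate 1 was the lowest array and no ddm1 array reached the wild type range. For SWEET7 the separation was narrower, 0.78 log2 units, and wild type replicate 3 lay below the other wild type arrays.

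The clade III sucrose transporters went in opposite directions. SAG29, first described as a senescence-associated gene and active with SWEET11 in seed filling, read 0.66, 0.46 and 0 in wild type against -0.91, -0.70 and -0.81 in ddm1. It was 2.27-fold lower (-1.18 ± 0.18), and its spread lay in wild type (SD 0.338) more than in ddm1 (SD 0.106). SWEET11, which exports sucrose for phloem loading in leaves, was the one gene of the 6 that stood higher in ddm1. The wild type arrays read -0.17, -0.22 and -0.07 and the ddm1 arrays 0.89, 1.33 and 0.99, a difference of 1.22 ± 0.12 or 2.34-fold. The lowest ddm1 array exceeded the highest wild type array by 0.96 log2 units. Genes that mark the phloem were not analysed here.

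TMT3, the tonoplast transporter, had the smallest residual SD of the 6, 0.131. Its wild type values were 0.10, 0 and 0.06 and its ddm1 values -1.87, -1.59 and -1.54. The difference was -1.72 ± 0.10, or 3.30-fold lower, and the gap between the groups was 1.54 log2 units. TMT1 and TMT2, the other tonoplast monosaccharide transporters, did not pass the test in the same fit. TMT1 differed by 0.21 ± 0.06 (95% interval 0.06 to 0.36, adjusted p = 0.111) and TMT2 by 0.20 ± 0.08 (interval -0.01 to 0.42, adjusted p = 0.234). The interval of each lies far from the value of TMT3. TMT3 was chosen for its difference on these arrays, so nothing is read from that distance.

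**Figure D1:**
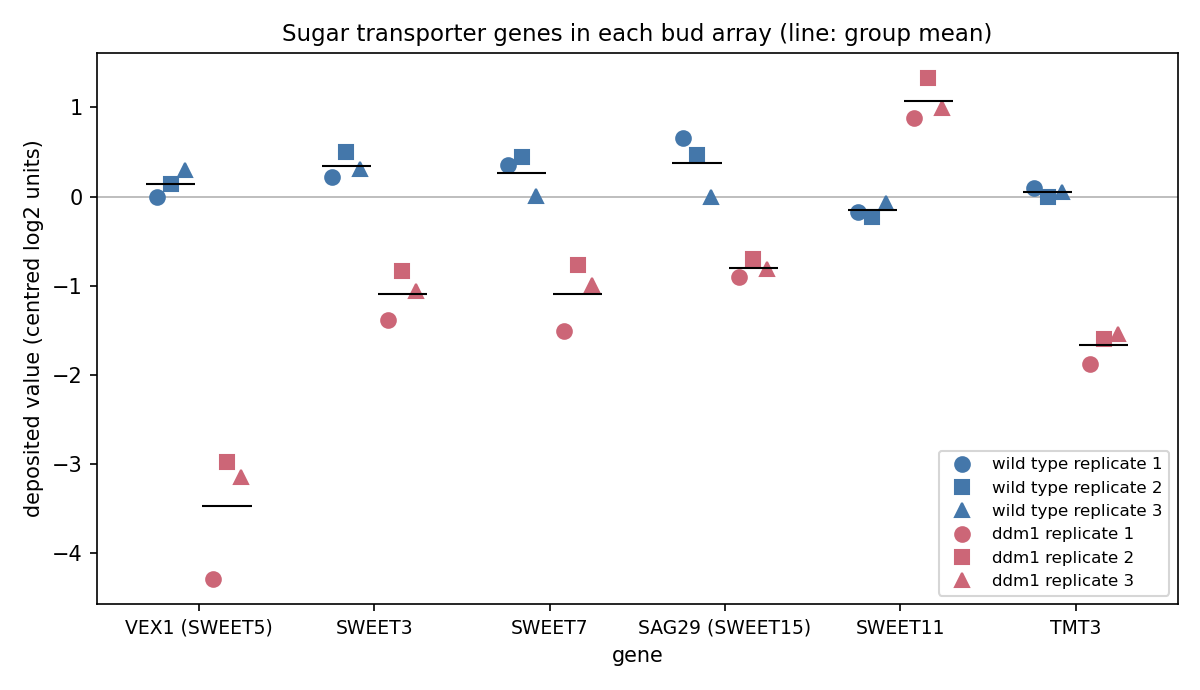
Deposited value (centred log2 units) of each of the 6 genes in each array, wild type in blue and ddm1 in red, with replicates 1, 2 and 3 as circles, squares and triangles and a line at each group mean. The groups do not overlap for any of the 6 genes, ddm1 lies below wild type for 5 and above for SWEET11, and the red circle of VEX1 at -4.29 is the lowest value. Over all probe sets, every ddm1 array lay below every wild type array for 16.7% and above for 10.4%. The 6 genes were chosen on this contrast, so nothing is read from the separation.

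Ordered by difference, VEX1 (-3.61) came first, then TMT3 (-1.72), SWEET3 (-1.44), SWEET7 (-1.36) and SAG29 (-1.18), with SWEET11 (1.22) at the other end. SWEET3 and SWEET7 differ by less than the SE of either, and SWEET7 and SAG29 by less than the SE of SWEET7. Their order is not settled by these arrays. At adjusted p under 0.05 the limma fit over all probe sets called 5 of the 6 genes lower, beside 5.68% of all probe sets, and 1 higher, beside 3.50%. Every ddm1 array lay below every wild type array for 5 genes, as for 16.7% of all probe sets, and above for 1, as for 10.4%. The genes were chosen on this contrast, so nothing is read from these counts.

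The ddm1 arrays were not equally low. Replicate 1 gave the lowest value of the 3 for each of the 5 genes that were lower, by -1.23 log2 units at VEX1, -0.62 at SWEET7, -0.44 at SWEET3, -0.31 at TMT3 and -0.15 at SAG29 against the mean of replicates 2 and 3. SWEET11 was lowest in that array too, by -0.27. Among all 1291 probe sets called lower, replicate 1 was the lowest ddm1 array for 48.7%, and among all probe sets tested for 49.2%, so this array was often the lowest across the table too. Without replicate 1, 5 genes remained lower, from -1.13 at SAG29 to -3.20 at VEX1, and SWEET11 stood at 1.32.

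The rest of the SWEET family shows what the 6 genes stand beside. Of 17 family genes, 16 were measured, and SWEET12 was not analysed here. Among the 11 that are not described above, limma with Benjamini-Hochberg adjustment over all probe sets called 1 lower and 1 higher, against 5.68% and 3.50% of all probe sets, and their median difference was 0.18. SWEET8, also RPG1, which is needed for the pollen wall, read -0.03, 0.13 and 0.00 in wild type against -0.77, -0.59 and -0.41 in ddm1. It fell 1.54-fold (-0.63 ± 0.10, limma adjusted p = 0.0231). That call was lost without wild type replicate 1, 2 or 3 or ddm1 replicate 2 (adjusted p from 0.0695 to 0.0715). SWEET1, a glucose uniporter of clade I, read -0.32, -0.37 and -0.27 in wild type against 0.15, 0.28 and 0.23 in ddm1. It rose 1.46-fold (0.54 ± 0.05, limma adjusted p = 0.00250), and the call held whichever of the 6 arrays was omitted.

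**Figure D2:**
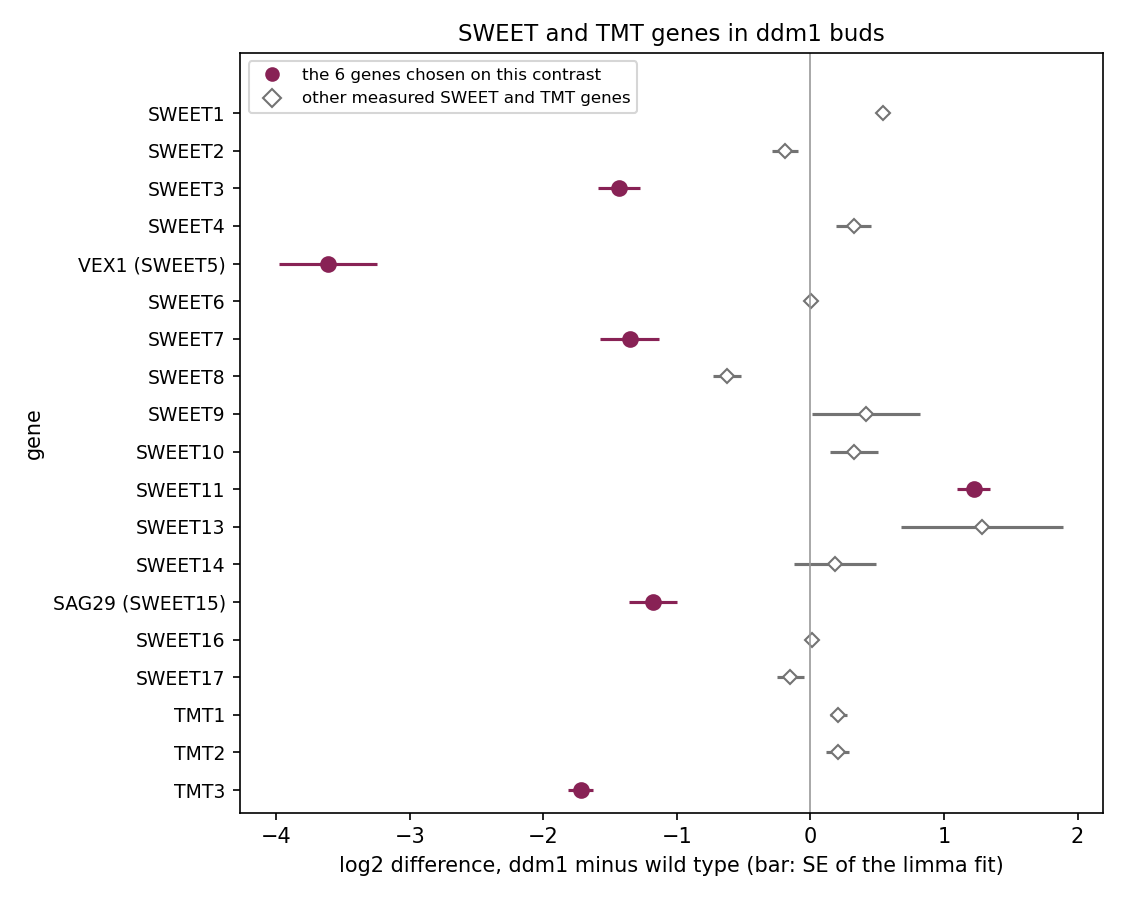
Log2 difference, ddm1 minus wild type, of the 16 measured SWEET genes and of TMT1, TMT2 and TMT3, with bars for the SE of the limma fit. Filled circles are the 6 genes chosen on this contrast and open diamonds are the others; VEX1 lies at -3.61, and SWEET13, at 1.29, has the widest bar.

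The other 9 SWEET genes were not called. SWEET13 and SWEET14 are sucrose carriers that act in anthers and also move gibberellin, and SWEET9 exports sucrose into nectar. All 3 varied more within wild type than within ddm1, though SWEET13 spread widely in both (SD 1.009 and 0.684). SWEET13 read -0.08, -2.08 and -0.88 in wild type against 1.05, 0.00 and -0.23 in ddm1. Its difference of 1.29 ± 0.61 (95% interval -0.24 to 2.81, limma adjusted p = 0.284) was as large as that of SWEET11, yet its groups overlapped. SWEET9 read -0.27, -1.43 and 0 in wild type, with ddm1 between -0.49 and 0.05, and SWEET14 read 0.22, -0.95 and -0.09, with ddm1 between -0.27 and 0. In all 3 genes wild type replicate 2 was the lowest of the 6 arrays, as it was for 8 of the 25 measured sugar genes outside the 6 (also SWEET1, SWEET10, STP3, TMT2 and VGT2), for SWEET11, and for 9.55% of all probe sets. Without that array SWEET13 stood at 0.75 ± 0.48, SWEET9 at -0.02 ± 0.20 and SWEET14 at -0.15 ± 0.14, none of them called.

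SWEET4, a hexose transporter, stood at 0.32 ± 0.13 (adjusted p = 0.216) and SWEET10 at 0.33 ± 0.18 (adjusted p = 0.350). SWEET2 and SWEET17, which act at the tonoplast, stood at -0.19 ± 0.10 and -0.15 ± 0.10. SWEET6 and SWEET16 were flat on all 6 arrays, with differences of 0.00 ± 0.03 and 0.01 ± 0.03 and SDs of at most 0.0178. Whether these 2 probe sets rose above background is unknown, because the values carry no level.

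The lists of other sugar transporters and of sucrose use held 69 genes, of which 15 were measured, TMT3 and 14 more. Limma called 0 of the 14 lower and 1 higher, against 5.68% and 3.50% of all probe sets, with a median difference of 0.0021. An unadjusted p under 0.05 was found for 5, but the share of all probe sets at that level is not given, so nothing is read from it. STP3, a proton-coupled monosaccharide importer, read -0.25, -0.78 and 0 in wild type against 0.80, 1.01 and 0.63 in ddm1. It rose 2.24-fold (1.16 ± 0.22, limma adjusted p = 0.0357), but omitting wild type replicate 1 (adjusted p = 0.102) or ddm1 replicate 1, 2 or 3 (0.0936, 0.0991 and 0.0781) ended the call. The importers STP5, STP8 and STP10 differed by 0.05, 0.00 and 0.00. SFP1 and SFP2, members of the vacuolar ERD6-like group, stood at -0.51 ± 0.20 and -0.36 ± 0.14, and the glucose transporters VGT2 and VGT3 at -0.09 ± 0.08 and 0.15 ± 0.05. Adjusted p-values of these 4 lay between 0.179 and 0.614. The polyol transporter genes PMT3 and PMT4 stood at -0.60 ± 0.36 and -0.15 ± 0.12. VI1 and CWINV6, genes with invertase names, stood at -0.07 ± 0.25 and 0.00 ± 0.03. Proton-coupled sucrose importers of the SUC family, sucrose synthases and hexokinases were not analysed here.

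Some genes of pollen and tapetum were also called lower in ddm1 and others were not called. Of 20 listed pollen genes other than VEX1, 10 were measured, and limma called 4 lower and 0 higher, against 5.68% and 3.50% of all probe sets, with a median of -0.38. Averaged over these 10, the centred values ran from -0.01 to 0.07 in wild type arrays and from -0.63 to -0.51 in ddm1 arrays. AT5G45880, listed as similar to the pollen gene LAT52, fell by 1.93 ± 0.11, the reproductive actin ACT12 by 1.78 ± 0.09 and AGL30 and AGL66, MADS-box regulators of pollen maturation, by 0.81 ± 0.12 and 0.65 ± 0.03 on the log2 scale. Limma adjusted p-values of these 4 lay between 0.000295 and 0.0183, and the call of AGL30 was lost without wild type replicate 3 (0.0576). The 6 others were not called: AGL104 stood at -0.72 ± 0.27 (adjusted p = 0.192), AGL65 at -0.10, and ANX2, AGL94, ANX1 and ACT11 between -0.01 and 0.03. ANX2, AGL94 and ANX1 lay close to 0 on every array, and whether their probe sets rose above background is unknown. VEX1 (-3.61) lay well below AT5G45880, while TMT3 (-1.72) lay beside ACT12 (-1.78). Of the tapetum, the layer that feeds developing pollen, 4 of 21 genes were measured, and 2 were called lower and 0 higher, the regulator AMS (-1.23 ± 0.08, limma adjusted p = 0.00099) and A9 (-1.08 ± 0.10, limma adjusted p = 0.00313). SPL, which starts sporocyte formation, stood at -0.82 (adjusted p = 0.135) and the receptor kinase gene EMS1 at 0.01 (adjusted p = 0.979), and the list's median was -0.95. Their 4-gene mean ran from 0.08 to 0.28 in wild type and from -0.78 to -0.54 in ddm1. In whole buds, fewer cells of a type and less RNA per cell cannot be told apart. The part of these tissues in the transporter values was not tested.

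**Figure D3:**
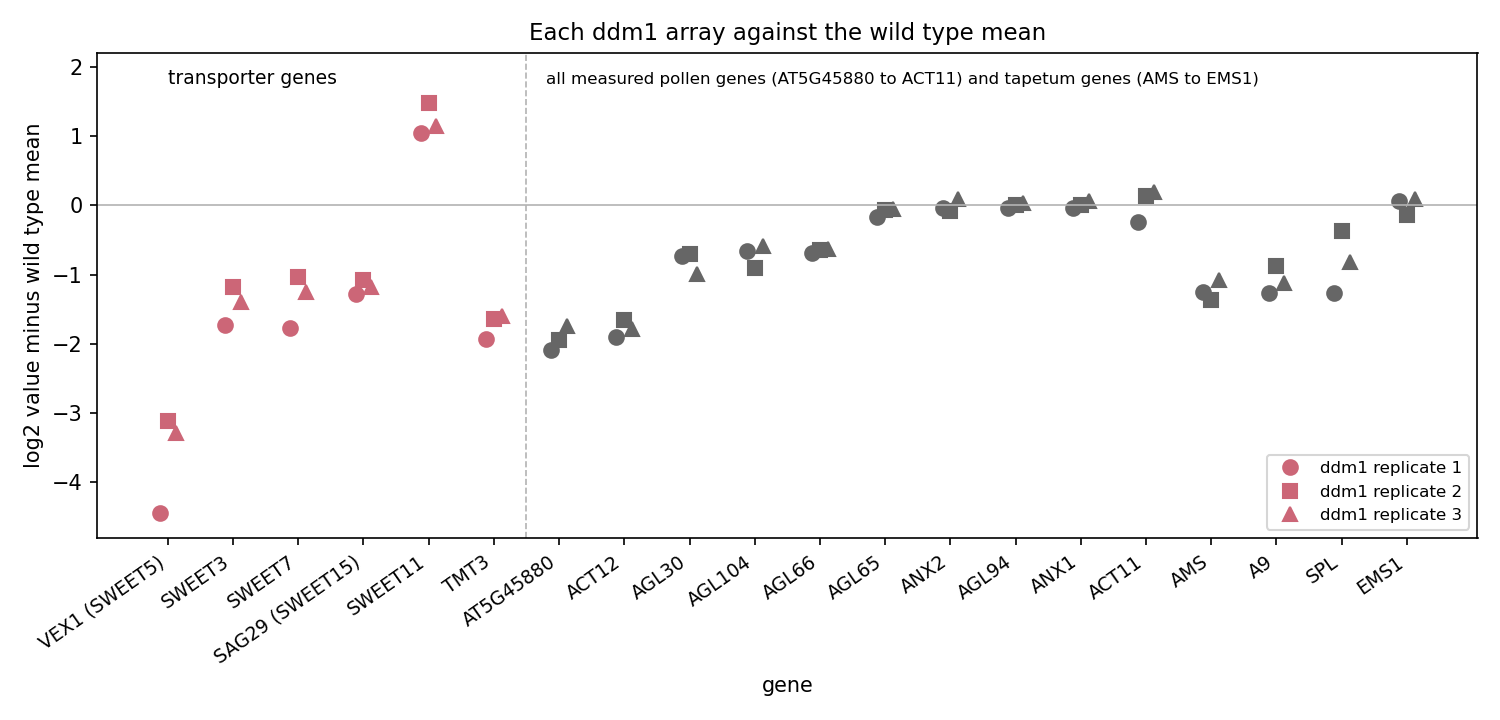
Each ddm1 array's log2 value minus the wild type mean, for the 6 transporter genes (red, left) and for all 14 measured pollen and tapetum genes (grey, right), with ddm1 replicates 1, 2 and 3 as circles, squares and triangles. VEX1 lies below every other gene shown, the grey genes run from AT5G45880 at a mean of -1.93 to genes near 0 such as ANX1 and EMS1, and SWEET11 lies above 0.

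Genes of green tissue and senescence are given beside SWEET11 and SAG29. Of 12 listed green tissue genes, 4 photosynthesis genes were measured. Among these 4, 1 was called higher and 0 lower, against 3.50% and 5.68% of all probe sets, and the list's median was 0.28. The gene called was LHCB4.2 of the light-harvesting antenna (0.38 ± 0.05, limma adjusted p = 0.0141). LHCB4.1 stood at 0.35, the Rubisco activase gene RCA at 0.20 and LHCB4.3 at -0.06, with adjusted p-values from 0.0738 to 0.839. The 4-gene mean ran from -0.12 to -0.05 in wild type and from 0.09 to 0.20 in ddm1. The call of LHCB4.2 was lost without wild type replicate 1 or 2 or ddm1 replicate 2 (limma adjusted p from 0.0509 to 0.0576). Of 9 listed senescence genes, only 2 were measured, so they do not describe senescence as a whole. Limma called 0 of the 2, and 1 had an unadjusted p under 0.05, a level for which no share of all probe sets is given. WRKY53, a senescence regulator, read 2.57, 1.39 and 0.41 in ddm1 against -0.12 to -0.08 in wild type, and SAG101 read 1.22, 0.68 and 0.04 against -0.04 to 0. SAG29, itself named for senescence, lay at -0.91, -0.70 and -0.81 in the same ddm1 arrays. The part of these tissues in the SWEET11 and SAG29 values was not tested.

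The 3 nearest patterns among other loci were listed for each of the 6 genes. Likeness was measured as the root mean square distance over the 6 arrays, each probe set set against its wild type mean, among 13435 candidate probe sets. Among so many candidates some lie close in any case, and no background distance is given, so the list is a description only. The nearest to VEX1 were AT4G10060, AT2G29790 and AT5G42170, at distances of 0.348, 0.351 and 0.419 log2 units. AT2G29790 shared the low ddm1 replicate 1 (-4.71 against -3.61 and -3.50), and AT4G10060 less so (-3.54, -3.35 and -2.89). For TMT3 the list held AT1G30350 at 0.0623, AT1G10770 at 0.102 and AT2G43230 at 0.114. Nearest to SWEET11 were AT5G22860 at 0.0601, AT2G37540 at 0.0986 and the pseudogene-type locus AT2G20460 at 0.141. For SWEET7 they were DD46 (AT1G22015), OCT1 (AT1G73220) and AT1G06260, at 0.12, 0.129 and 0.136. SWEET3 was nearest to AT3G52620, AT1G06170 and AT1G23590 (0.110, 0.131 and 0.135), and SAG29 to AT2G42140, AT1G03390 and AT2G22180 (0.123, 0.157 and 0.160).

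The loci next to the transporters were set beside them, since ddm1 alters chromatin over stretches of the genome. The transporters were chosen for their difference on these arrays and the neighbours were not, so nothing is read from the distance between them. Among the 5 loci on each side of each gene in the RefSeq order, 24 of 60 had a probe set of their own. Limma called 0 of these 24 lower and 0 higher, against 5.68% and 3.50% of all probe sets, and 5 had an unadjusted p under 0.05. The share of all probe sets at that unadjusted level is not given, so nothing is read from the 5. Their differences ran from -0.47 to 0.65, with a median size of 0.0758, near the 0.086 of all probe sets. The 4 measured neighbours of VEX1 lay between -0.03 and 0.01, and the 3 of SWEET7 between -0.01 and 0.04. Whether such flat probe sets rose above background is unknown, because the values carry no level. Their small differences therefore do not show that transcription there was unchanged, and they also enter the median size and the calls above. Beside SWEET3, TRY, a regulator of leaf hair patterning and the next locus, stood at -0.47 ± 0.15 (limma adjusted p = 0.141). Near TMT3 the lowest neighbour was AT3G51470, 3 places away, at -0.43 ± 0.15 (adjusted p = 0.176), and the adjacent glutamate receptor-like gene GLR3.6 stood at -0.28 ± 0.17 (adjusted p = 0.383). The highest neighbour of SWEET11 was AT3G48770 at 0.65 ± 0.25 (adjusted p = 0.201). Of the 60 neighbouring loci, RefSeq types 2 as a pseudogene or transcribed pseudogene, AT4G10865 near SWEET7 and AT3G51478 near TMT3. In the same order 32.4% of protein-coding loci have at least 1 such locus among their 10 neighbours, beside 2 of the 6 transporters.

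**Figure D4:**
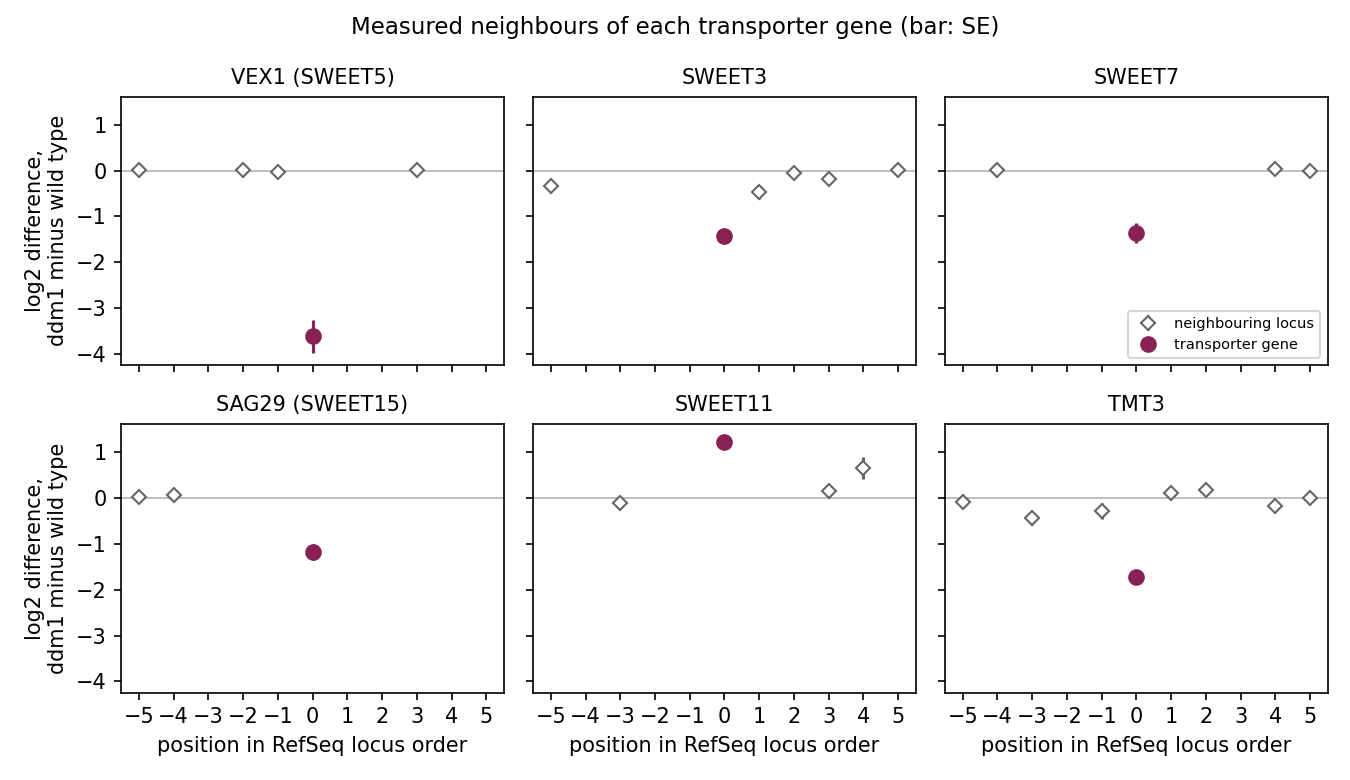
Log2 difference, ddm1 minus wild type, with its SE, of each transporter gene (filled circle at position 0) and of the measured loci up to 5 places away in the RefSeq order (open diamonds). The neighbours lie between -0.47 and 0.65, while the transporters lie between -3.61 and -1.18 or, for SWEET11, at 1.22. Only the transporters were chosen for their difference on these arrays, so nothing is read from that distance.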

How the data were processed

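Total RNA of unopened buds was made into biotin-labelled target for 1-colour arrays, per the labels' protocols. The authors deposited GCRMA values, per the submitters' processing notes, on a log2 scale whose base was inferred from GCRMA and the range of -10.0 to 8.57. Each probe set is centred, and the sources used here do not state the baseline. Array medians were 0, 0 and 0.00681 in wild type replicates 1 to 3 and -0.00642, 0 and 0.0175 in ddm1. Signal above background is unknown, and GCRMA compresses dim signals, so a difference from a group near background may be understated. Precision is limited by the 6 arrays.

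Without the 64 control probe sets, 22746 remained and were fitted with limma 3.58.1 in R 4.3.3 (lmFit, eBayes, genotype as the only term), with two-sided p-values adjusted by Benjamini-Hochberg over all of them and calls at an adjusted p under 0.05. The platform annotation names 1 gene for 13513 probe sets, of which 13436 matched the RefSeq table of TAIR10.1 by gene number. RefSeq gave locus order only. Of 153 listed genes, 51 had a probe set of their own. Figures and summaries used Python 3.11.15, pandas 2.3.3 and matplotlib 3.10.9. The fit was tested on simulated data.

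The 6 genes, the lists and the tests were chosen with earlier results of these arrays known. Named are the 6 genes, every measured gene of the sugar lists, up to 4 genes of each marker list by lowest adjusted p, the 3 nearest patterns of each of the 6, and neighbours; the other pollen genes and AT3G51470 were added after their values were seen. Same-numbered arrays correlated at 0.0752, 0.0900 and 0.0159 in their deviations from the group means, and different-numbered arrays at -0.0907 to 0.0229. The highest values were of same-numbered arrays, but all were small and the numbers were not taken as pairs. Results with a replicate block are given below. Nothing in the labels names separate plants beyond calling the replicates biological.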

Additional observations from a re-analysis of the deposited data

How the results depend on the processing

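With arrays centred on their median, VEX1 stood at -3.61. A replicate block left the difference of each of the 6 transporters unchanged, which equal groups fix in advance. With 1 array left out, 5 stayed lower, which the lack of overlap between their groups also fixes. These outcomes are therefore no check on the differences. Leaving out 1 array gave -3.86 to -3.20 for VEX1.

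Among the other 25 sugar genes, 1 lower and 2 higher calls became 0 and 1 without variance moderation, and 1 and 1 with a replicate block. They were 0 to 1 and 1 to 2 when 1 array was left out. The lower gene was SFP1 with the block (adjusted p = 0.0137) and SFP2 without ddm1 replicate 2 (0.0440), in place of SWEET8. SWEET8 had an adjusted p of 0.0916 without moderation and 0.0719 with the block, and STP3 0.125 and 0.142. TMT1 was called higher without ddm1 replicate 3 (0.0323). SWEET1 kept its call under every alternative run. Of the 21 measured genes of the marker lists, 6 were called lower and 1 higher, beside 5.68% and 3.50% of all probe sets. These became 5 and 0 without moderation and 5 and 0 with the block. They were 5 to 6 and 0 to 2 when 1 array was left out. AGL30 lost its call without wild type replicate 3 (0.0576), without moderation (0.0810) and with the block (0.0538), and LHCB4.2 in the last 2 (0.0575 and 0.0896).

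Over all probe sets, 1291 lower and 795 higher calls became 429 and 373 without moderation, 553 and 433 with the block, and 629 to 1011 and 432 to 788 when 1 array was left out. The cause of these shifts was not tested. Signal over background could not be assessed from centred values.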
